A study of Bombyx mori with 3 samples.

Results

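The cells described here are SPS-marker cells of the silkworm silk gland, taken from an embryonic and a molting gland. A barcode counted as a member if it passed quality filters with the limits the study states and held at least 1 unique molecular identifier (UMI, a counted RNA molecule) of at least 2 of the 5 leading markers of the sericin protein-synthesizing cells (SPSs). These markers were LOC101745935, LOC692831, LOC101737305, LOC778466 and LOC101745308. The rule selected 286 of 4880 kept barcodes in the embryonic library (5.86%, exact 95% interval 5.22 to 6.56) and 949 of 7125 in the molting library (13.3%, 12.5 to 14.1), together 1235 of the 16344 kept barcodes of the series. The study dissociated silk glands of Bombyx mori of the Nistari strain and sequenced single cells on the 10x Genomics platform. Glands came from embryos 8 days after egg laying (E8D), from first-instar larvae of day 1 (1L1D) and from larvae in their first molt (1LM). Each stage was 1 library from about 2000 pooled glands, with no treatment named for any stage, so that stage and library cannot be told apart. Members were therefore compared with the other kept barcodes of their own library, and no test or p-value is given, because cells of 1 library are not replicates.

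The silk gland is a tube with an anterior, a middle and a posterior region. The posterior region secretes fibroin, the core of the silk fiber, and the middle region secretes sericin, the glue that coats it. Fibroin is built from a heavy chain, a light chain and the glycoprotein P25. Seroins are small proteins of the silk with antimicrobial activity. The markers that define the members encode an SRP40-like protein, an acyl-CoA delta-11 desaturase, which introduces a double bond into fatty acids, a cytochrome P450 of the 4C1 type, an NADP-dependent oxidoreductase, and an intermediate chain of ciliary dynein, a motor protein.

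The kept barcodes of E8D and 1LM held 6878383 and 13120838 UMIs. Members were deeper than other cells, with a median of 2016.5 UMIs against 721 at E8D and of 2187 against 1364.5 at 1LM. Their median mitochondrial share was lower, 5.31% against 14.8% at E8D and 2.95% against 4.93% at 1LM. A deep cell can show a marker more easily, so the rule favors deep cells. Levels are therefore given as CPM, the UMIs of a gene per 1000000 UMIs of the summed cells. E8D and 1LM shared 10 barcode sequences, none of them of a member in both. Doublets were left in the main comparison. A score from simulated doublets set aside 7.34% of the members and 4.09% of the other cells at E8D, and 11.7% and 5.13% at 1LM. The values of the 5 markers below describe the choice of the members and carry no test. All intervals are exact 95% intervals (binomial for ratios, Poisson for CPM, Clopper-Pearson for shares) and cover counting error only.

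The markers that selected the members differed between the libraries. At E8D, the P450 LOC101737305 was detected in 86.4% of the members and the dynein chain LOC101745308 in 85.3%. The desaturase LOC692831 was detected in 2.80% of these members and the SRP40-like gene LOC101745935 in 6.29%. At 1LM, the desaturase was detected in 77.7% of the members and the oxidoreductase LOC778466 in 75.03%, while the dynein chain was detected in 14.6%. Of the 286 members at E8D, 208 held both the P450 and the dynein chain, and 169 held these and no other marker. Of the 949 members at 1LM, 530 held both the desaturase and the oxidoreductase, and 48 held both the P450 and the dynein chain. The same rule thus took cells through different marker pairs at each stage. The desaturase had only 21 UMIs in the whole kept E8D library and 2317 in 1LM.

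**Figure D1:**
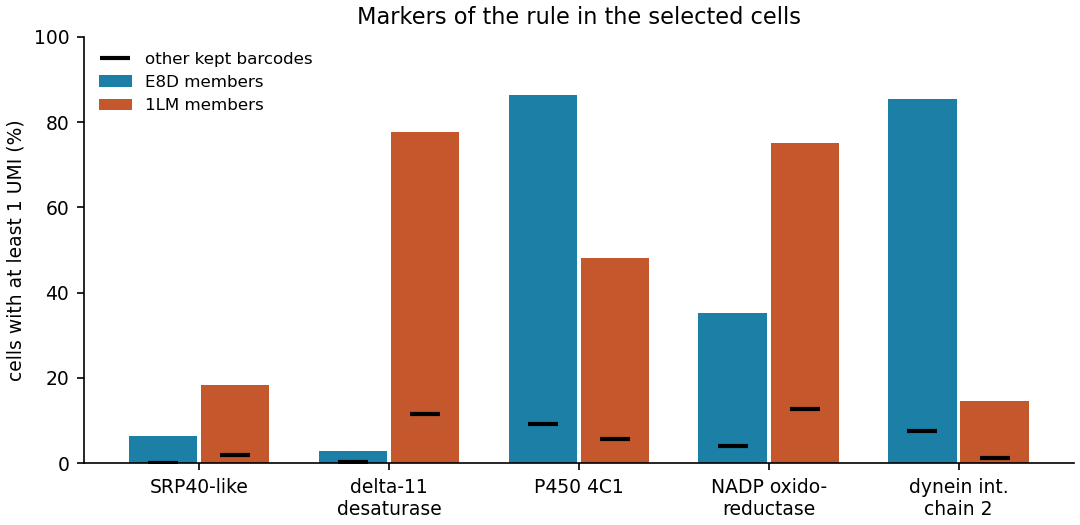
Share of cells with at least 1 UMI of each of the 5 selecting markers (y axis, percent), for members of E8D (blue) and 1LM (orange) and for the other kept barcodes (black bars). The P450 and the dynein chain were held by most E8D members (86.4% and 85.3%), the desaturase and the oxidoreductase by most 1LM members (77.7% and 75.03%).

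Outside the members, the markers were detected in few cells. The P450 was found in 9.08% of the other cells at E8D and 5.70% at 1LM. In cells with at least 2 markers of another type, which should lack the genes, it was found in 4.52% of 199 LSF-marker cells at E8D (liquid silk fibrosis cells of the anterior gland, median 1255 UMIs) and 6.08% of 789 ECR-marker cells at 1LM (epithelial remodeling cells of the anterior gland, median 1914 UMIs). The desaturase was found in 9.76% of the ECR-marker cells at 1LM, close to its 11.6% in all other cells. From these cells, 5 LSF-marker cells at E8D and 53 ECR-marker cells at 1LM had been left out because they were members. The rule thus lowers the shares of its own markers here. Shares at or below these levels are read as background, of which they are a low estimate for the 5 markers. Thinning took each cell with at least 1000 UMIs down to 1000 and left out all others. This kept 204 of 286 members and 1258 of 4594 other cells at E8D, and 867 of 949 and 4515 of 6176 at 1LM. Shares after thinning thus describe these deeper cells only, with members still as chosen at full depth. The P450 was then detected in 56.9% and 24.6% of the members and in 6.92% and 3.83% of the other cells.

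How far the 5 markers lay in the same cells was described by leaving each out of the rule and measuring it in cells with at least 2 of the other 4. At 1LM, all 5 left-out markers were higher in the cells so chosen, with log2 ratios from 1.21 for the dynein chain (0.80 to 1.62) to 1.76 for the desaturase (1.63 to 1.89). At E8D, the P450 (1.77, 1.58 to 1.96), the dynein chain (1.80, 1.58 to 2.02) and the SRP40-like gene (2.71, 1.44 to 4.01, on 24 UMIs) were higher. The oxidoreductase at E8D had 53.6 CPM in the chosen cells and 46.1 CPM in the rest (0.22, -0.26 to 0.66). The desaturase at E8D rested on 4 UMIs in the chosen cells and 17 in the rest (0.36, -1.67 to 1.98), so that a difference was not detectable at this depth. All 5 markers thus had intervals above 0 at 1LM, and 3 of them at E8D. The study drew these markers for 1 cluster from these same libraries. The ratios therefore describe that choice and are not independent evidence.

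Cells just outside the rule held 1 marker, and cells just inside held 2. Seroin 1 (LOC692598) stood at 3548 CPM in the 967 cells of E8D with 1 marker and at 7707 CPM in the 242 with 2 markers. Sericin 2 (Ser2), a sericin gene of the middle gland, stood at 51.1 and 101 CPM in the same cells, and the fibroin light chain (Fib-l) at 2195 and 813 CPM. In the 42 cells of E8D with 3 markers, Ser2 stood at 87.2 CPM, below its level with 2, seroin 1 at 8918 CPM and Fib-l at 324 CPM. A wider range of marker numbers at 1LM showed this order in most steps, but not in each. At 1LM, Ser2 went from 6920 CPM in the 4133 cells with 0 markers over 8772 CPM with 1 and 12772 CPM with 2 to 19514 CPM in the 222 cells with 3 markers. Fib-l stood at 11590, 12011, 7217 and 3616 CPM in the same order, so it did not fall from 0 to 1 marker. In the 48 cells with 4 or 5 markers, Ser2 stood at 18762 CPM and Fib-l at 2446 CPM. Median depth also differed between these classes, from 1314 UMIs with 0 markers to 2957 UMIs with 3 at 1LM, and from 707 to 5335.5 UMIs at E8D, and its part in the levels was not tested.

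**Figure D2:**
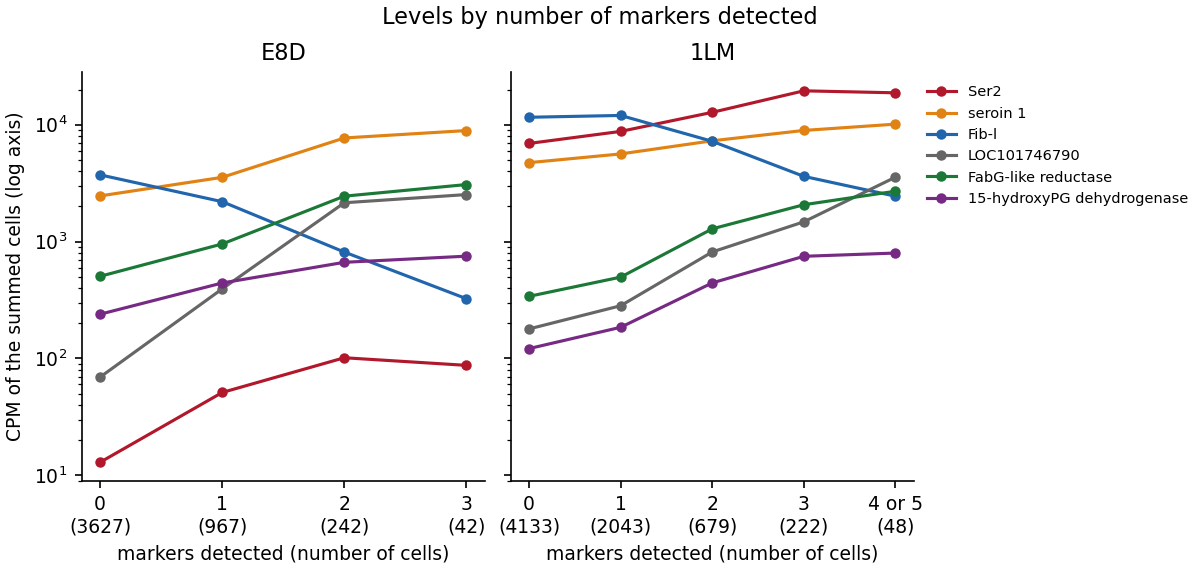
CPM of the summed kept barcodes (log axis) by the number of selecting markers detected, for E8D (left) and 1LM (right). Numbers in parentheses are cells, and the 2 cells of E8D with 4 markers are left out. Ser2 at 1LM went from 6920 to 19514 CPM between 0 and 3 markers, while Fib-l went from 11590 to 3616 CPM.

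Across all genes, a gene was called higher or lower where its CPM in members differed at least 2-fold from that in other cells and the interval of the log2 ratio left out 0. Genes with at least 100 UMIs over the kept barcodes entered and are counted as tested, without the 5 markers. At E8D, 366 of 3855 genes were called higher (9.49%) and 297 lower (7.7%). At 1LM, 136 of 6718 were called higher (2.02%) and 704 lower (10.5%). The median log2 ratio of all genes was 0.13 at E8D and -0.17 at 1LM. With edgeR TMM factors, which scale to the bulk of genes, all ratios moved by -0.14 at E8D and by 0.19 at 1LM. The calls then were 277 higher and 368 lower at E8D, and 218 higher and 536 lower at 1LM. Cells of like depth lay between the 25th and 75th percentile of the members' UMIs. Of these, 142 members and 1381 other cells were left at E8D and 475 and 2347 at 1LM. This range, called like depth below, still left members deeper, with medians of 2016.5 against 1267 UMIs at E8D and 2187 against 2037 at 1LM. Depth was thus matched only in part, and less at E8D. Of the 366 genes called higher at E8D, 156 still had 100 UMIs in this range. Of these, 155 kept their direction and 110 stayed at least 2-fold higher. Of the 136 genes at 1LM, 96 had 100 UMIs, 95 kept their direction and 86 stayed at least 2-fold higher. The range holds a part of the same cells, so a kept direction is not an independent check.

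Of the silk protein genes, Ser2 and a sericin 1-like gene of the middle gland were called higher in members of both libraries, seroin 1 at E8D, and the fibroin genes of the posterior gland were called lower in both. Ser2, this sericin 1-like gene and seroin 1 also stand in the study's own table of SPS markers. That table was drawn from these libraries, so their direction is not independent evidence. Ser2 had 94.7 CPM (77.2 to 115) in E8D members and 22.6 CPM (18.9 to 26.8) in other cells, a log2 ratio of 2.07 (1.68 to 2.45). At 1LM, it had 15182 CPM in members and 7562 in other cells, a ratio of 1.01 (0.99 to 1.02) that was just past the 2-fold limit. Without the member and the other cell richest in Ser2, its ratio at 1LM was 0.95, short of the limit. Seroin 1 had 7999 against 2735 CPM at E8D (1.55, 1.51 to 1.59) and 7981 against 5046 CPM at 1LM (0.66, 0.64 to 0.68). The seroin-like gene LOC105842464 had ratios of 0.84 and 0.19. At E8D, 10.8% of members and 1.19% of other cells held Ser2 after thinning, whereas at 1LM nearly every cell did (97.5% and 95.5%). The ECR-marker cells of 1LM, of the anterior gland, also held Ser2 in 99.6%, so that a UMI of it does not set a cell of 1LM apart. The study also reports Ser2 in its ECRs. Whether such UMIs are RNA of the cell itself or of other cells was not tested.

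The sericin 1-like gene LOC101740082 was called higher in both libraries. At E8D, it had 149 UMIs in 26 members, 37 of them in 1 cell, and 138 against 62.6 CPM (1.14, 0.86 to 1.42). Without the richest cell on each side, the ratio was 0.81, and among cells of like depth it was -0.60 (-1.44 to 0.14). At 1LM, it had 355 against 158 CPM (1.16, 1.05 to 1.28) and 1.31 at like depth, with 29.1% of members and 19.7% of other cells holding a UMI. A second sericin 1-like gene, LOC105842827, had 7 UMIs in members of 1LM and none in E8D. Sericin 3 (Ser3) had 0 UMIs in members of both libraries, which, at 3 counts over the members, allows a share of cells with a UMI of up to 1.05% at E8D and 0.316% at 1LM. This limits cells with a UMI and not cells that express the gene.

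Fib-l had 660 CPM in E8D members and 3338 in other cells (-2.34, -2.45 to -2.23). The fibroin heavy chain FIBH had 38.05 against 192 CPM (-2.34, -2.82 to -1.89), and P25 had 6.50 against 36.03 CPM (-2.47, -3.80 to -1.40). At 1LM, the same genes had log2 ratios of -1.01, -1.05 and -1.23, and of -0.89, -0.97 and -1.01 among cells of like depth, where Fib-l and FIBH fell short of 2-fold. A further row of the heavy chain, FIBH-2, was lower by about the 2-fold limit (log2 interval -1.32 to -0.69) at 1LM, and reads of the heavy chain may be split between both rows. Fibroin RNA was still present in the members of 1LM, at 5812 CPM for Fib-l and 7201 CPM for FIBH, and 95.8% and 95.4% of thinned members held it. The ECR-marker cells of 1LM held Fib-l in 99.9%, so that this share does not set the members apart either. Its source was not tested. Of the factors named for silk gene regulation, sage, a helix-loop-helix factor, had 766 against 292 CPM at E8D (1.39, 1.27 to 1.51) and 605 against 435 CPM at 1LM (0.48). The forkhead factor SGF1 had 246 against 117 CPM at E8D (1.07, 0.86 to 1.28) and 0.13 at 1LM. In all, 2 of 3 tested members of this list were called higher at E8D, where 9.49% of all genes were, and 0 of 6 at 1LM, where 2.02% were. Among cells of like depth, sage (0.93) and SGF1 (0.83) at E8D lay below the limit. The study's own table of SPS markers also holds sage, so its direction is not independent evidence.

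**Figure D3:**
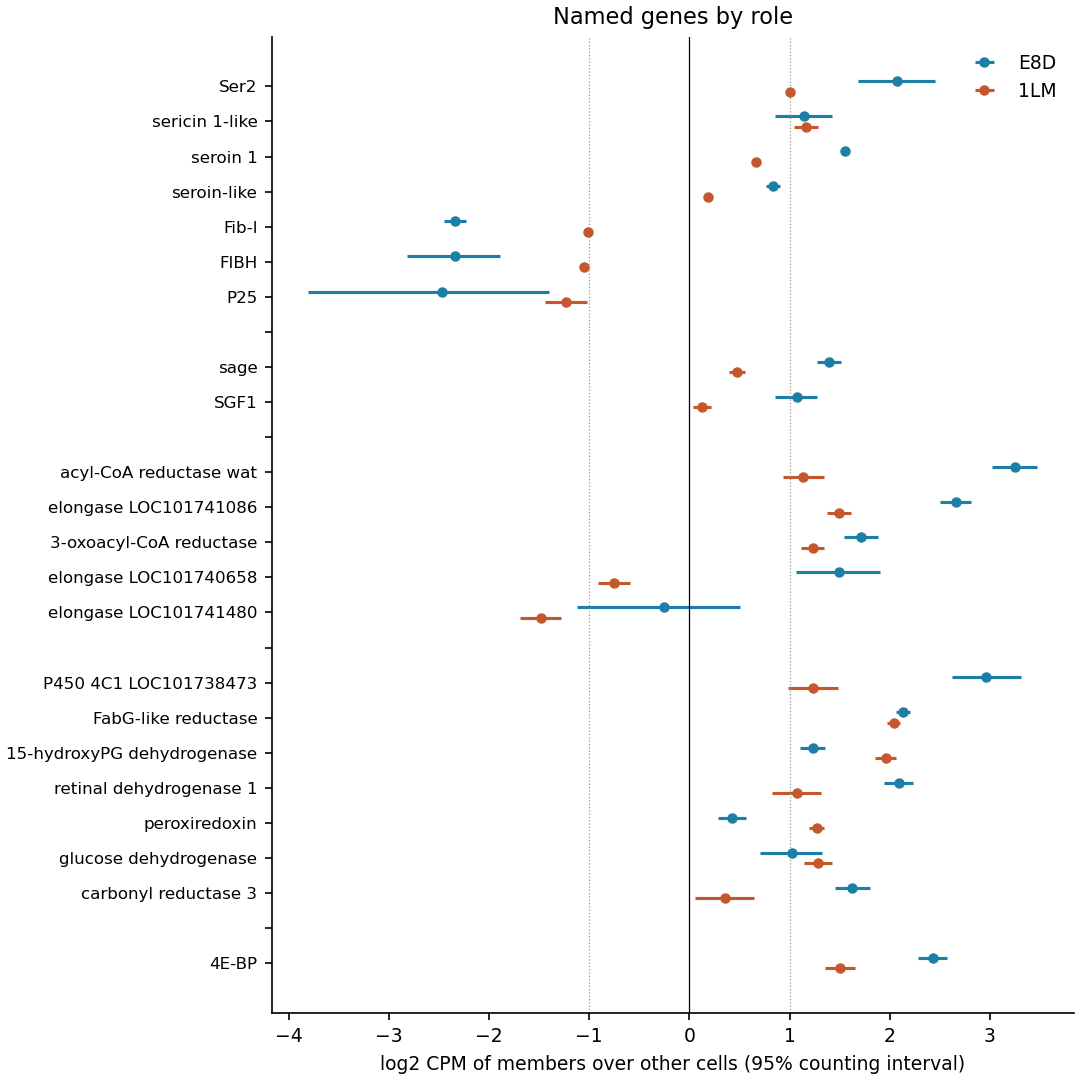
Log2 ratio of CPM in members over other kept barcodes of the same library (x axis) for named genes grouped by role, with exact 95% counting intervals, E8D in blue and 1LM in orange. Dotted lines mark 2-fold. The fibroin genes lie left of 0 in both libraries, at -2.34 for Fib-l at E8D and -1.01 at 1LM, and the sericin genes lie right of 0, of which the sericin 1-like gene at E8D went to -0.60 among cells of like depth.

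A fatty acyl-CoA reductase, an elongase and a 3-oxoacyl-CoA reductase were higher in members of both libraries. The fatty acyl-CoA reductase LOC101735916 (named wat), which makes fatty alcohols, had 420 against 44.3 CPM at E8D (3.25, 3.02 to 3.47) and 120.0 against 54.5 CPM at 1LM (1.14, 0.93 to 1.34). The elongase LOC101741086 had 691 against 109.6 CPM at E8D (2.66, 2.50 to 2.81) and 394 against 140.0 CPM at 1LM (1.49, 1.38 to 1.61). The very-long-chain 3-oxoacyl-CoA reductase LOC101744618, which acts in the same elongation cycle, had ratios of 1.71 and 1.23. This gene and the elongase LOC101741086 also stand in the study's own table of SPS markers, drawn from these libraries. Their direction is therefore not independent evidence. Of the fatty acid list, 4 of 7 tested genes were called higher at E8D and none lower, with a median of 1.49 beside 0.13 for all genes, of which 9.49% were higher and 7.7% lower. At 1LM, 3 of 17 were called higher and 8 lower, with a median of -0.75 beside -0.17 for all genes, of which 2.02% were higher and 10.5% lower. The genes called lower at 1LM included another reductase, LOC101740654 (155 against 582 CPM, -1.91), the elongase LOC101741480 (-1.48) and the stearoyl-CoA desaturase LOC101743452 (-1.39). LOC101740654 was detected in 75.5% of the ECR-marker cells and in 18.4% of the members. The elongase LOC101740658 was higher at E8D (68.7 against 24.5 CPM, 1.49) and had 148 against 249 CPM at 1LM (-0.75, -0.91 to -0.59).

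A list of oxidoreductases and conjugating enzymes had a larger share of genes called higher than all genes in both libraries. It was chosen with earlier results of these data known, and the P450 and the oxidoreductase of the rule are enzymes of the same kinds. Of this list, 7 of 12 tested genes were called higher at E8D and 7 of 13 at 1LM, with none lower and medians of 1.13 and 1.07, where 9.49% and 2.02% of all genes were called higher. The FabG-like reductase LOC101741281 had 2713 against 618 CPM at E8D (2.13, 2.06 to 2.20) and 1619 against 394 CPM at 1LM (2.04, 1.98 to 2.10). It was detected in 84.3% of thinned members and 39.7% of other cells at E8D, and in 59.7% and 29.1% at 1LM. LOC101735322, a 15-hydroxyprostaglandin dehydrogenase by annotation, had 682 against 290 CPM at E8D (1.23) and 558 against 143 CPM at 1LM (1.96, 1.86 to 2.07). A further P450 of the 4C1 type, LOC101738473, had ratios of 2.97 and 1.23, and it has the same annotation as the selecting P450. Whether reads are shared between them was not tested. Retinal dehydrogenase 1 (LOC101740694) had 2.09 and 1.07. Carbonyl reductase 3 (LOC101742796) and UGT33R2 were called higher at E8D only, with 1.63 and 2.55, against 0.36 and 0.74 at 1LM. The peroxiredoxin LOC732921 was called higher at 1LM (1.27) and had 0.42 at E8D. Of the genes called higher, 6 of 7 at E8D and 5 of 7 at 1LM also stand in the study's own table of SPS markers, which was drawn from these libraries, so the counts are not independent evidence.

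Few genes of translation were called. Over all tested genes, 9.49% were called higher and 7.7% lower at E8D, and 2.02% and 10.5% at 1LM. These shares stand beside every count of this paragraph. Counts of 0 or 1 in the lists of at most 22 genes are too few to be set apart from them. Of 22 tested translation factors, 1 was called higher in each library and none lower, with medians of -0.18 at E8D and 0.06 at 1LM beside 0.13 and -0.17 for all genes. This was the 4E-binding protein LOC732945, which restrains cap-dependent initiation, with 735 against 136 CPM at E8D (2.43, 2.29 to 2.57, or 1.61 at like depth) and 238 against 84.1 CPM at 1LM (log2 interval 1.35 to 1.65). LOC732945 also stands in the study's own table of SPS markers, drawn from these libraries. Elongation factor 1 alpha (EF1a) had -0.05 and 0.05. Of the ribosomal protein genes, none of 79 was called higher at E8D and 2 were lower, and none of 80 was called at 1LM, with medians of -0.32 and 0.13 beside 0.13 and -0.17 for all genes. Ribosomal protein genes thus lay below all genes at E8D and above them at 1LM. Of the genes of the endoplasmic reticulum and secretion, 5 of 19 were called lower at E8D, where 7.7% of all genes were, and none higher. At like depth, Pdi and Sec61alpha were still past 2-fold (-1.19 and -1.07), while the translocation genes LOC101745731 (-0.67), LOC732862 (-0.92) and LOC778461 (-0.93) were not. The protein disulfide isomerase Pdi had 233 against 768 CPM (-1.72, -1.91 to -1.54), and Sec61alpha, the channel for protein entry, had 148 against 408 CPM (-1.47). At 1LM, 1 of 20 was called, the oxidase Ero1 (-1.57). Of the ecdysone response genes, none of 5 was called at E8D and none of 9 at 1LM, and Br-c had 0.70 and 0.47. Of the other dynein genes, the beta chain LOC101742915 was the single gene tested at E8D and lower there (-1.09, on 9 UMIs in members), and 0 of 6 were called at 1LM. No other gene of this list was called higher beside the dynein chain of the rule. All 12 mitochondrial genes tested were lower in members at E8D, with a median of -1.58, or -0.65 at like depth. At 1LM, 1 of 12 was called lower (ND6), with a median of -0.68, or -0.17 at like depth beside -0.27 for all genes. The mitochondrial share and the depth of the cells moved with this, and their part was not tested.

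The gene with the highest ratio at E8D was LOC101746790, an uncharacterized gene, with 2198 against 151 CPM (3.86, 3.75 to 3.97). It was held by 35.8% of thinned members and 5.72% of other cells. LOC101744852 followed with 100 against 7.24 CPM (3.79), and had 5 UMIs in all at 1LM. Among the other 8 were the ice-structuring glycoprotein-like gene LOC101735652 (3.27 to 3.94), the ecdysone oxidase LOC100302629 (3.39), an enzyme that inactivates the molting hormone, and the clathrin assembly gene AP180 (LOC101744736), which acts in vesicle uptake (3.25). The remaining ones were LOC101736984 (3.46), LOC101743022 (3.43), LOC105842049 (3.38), LOC101745172 (3.30) and the reductase wat. Of these 10, all had ratios between 2.71 and 3.90 among cells of like depth. LOC101743853 had the lowest ratio at E8D (-6.71, -12.01 to -4.22), with 1 UMI in members and 562 in 7 other cells, 223 of them in 1 cell. The trehalose transporter LOC105841947 had 12.99 against 428 CPM (-5.04, -5.92 to -4.29). Aldose reductase LOC101739565 had 2 UMIs in members and 446 in other cells (-5.37, -8.42 to -3.51), and Y-c had 3 and 530 UMIs (-5.04, -7.32 to -3.48). LOC101737919 had 0 UMIs in members and 428 in other cells, so it was at least 26.5-fold lower, taken against a floor of 3 counts over the members. Among cells of like depth, the trehalose transporter had -2.93 and Y-c -2.51. The trehalose transporter is an LSF marker and was held by 94.97% of the LSF-marker cells.

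At 1LM, the highest ratios were lower than at E8D. LOC105841748 had 34.2 against 4.16 CPM (log2 ratio 3.04), in 34 members, and a ratio of 1.83 (0.89 to 2.75) among cells of like depth. The UDP-glycosyltransferase UGT33Q1 had 75.6 against 13.2 CPM (2.51, 2.19 to 2.84), LOC101746790 had 1213 against 215 CPM (2.50, 2.42 to 2.58), and LOC101745264 had 57.5 against 10.2 CPM (2.49). The transmembrane protein LOC101743388, named TMEM135, had 168 against 37.1 CPM (2.18). The others were LOC101745377 (2.07), LOC101741864 (2.06), LOC100862798 (2.05), the FabG-like reductase and LOC101739681. Among cells of like depth, UGT33Q1 had 1.64 and LOC101746790 had 1.88, whereas LOC101745264 had 2.71. LOC101739681 had 134 UMIs in members, of which 133 lay in 1 cell, so its ratio of 2.09 describes that cell. The lowest were the glucose dehydrogenase-like gene LOC110384737 (1.97 against 19.7 CPM, -3.32), LOC101738207 (-3.10), LOC101736150 (-2.91), LOC101740410 (-2.82) and LOC101739271 (-2.78), each with 5 to 7 UMIs in members. LOC110384737 was held by 15.6% of the ECR-marker cells.

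The 2 libraries shared part of these genes. Of the genes called higher, 67 were called in both, which is 18.3% of the E8D list and 49.3% of the 1LM list. Of the genes called lower, 74 were shared, 24.9% of the E8D list and 10.5% of the 1LM list. Of the E8D list of higher genes, 339 of 366 could be tested at 1LM, and of the 1LM list 84 of 136 at E8D. Of the lists of lower genes, 277 of 297 of E8D could be tested at 1LM, but only 144 of 704 of 1LM at E8D. The 10.5% of the 1LM list thus counts many genes that could not be shared. Over all tested genes, 9.49% were called higher and 7.7% lower at E8D, and 2.02% and 10.5% at 1LM. Each comparison used its own library. Ranked by the lower of their ratios in the libraries, the first shared genes were LOC101746790, LOC101745264, the transmembrane protein LOC101743388, LOC101745377, LOC101741864, the FabG-like reductase, LOC101742817 (2.56 at E8D and 1.91 at 1LM), the long non-coding RNA LOC101737054 (2.28 and 1.88, or 1.25 at E8D at like depth), LOC101743022 (3.43 and 1.88) and LOC101737213, annotated as centromere protein F (2.68 and 1.83). Among cells of like depth, LOC101743022 at 1LM had 0.93 (-0.23 to 1.99) and was not called. LOC101745377 was the most abundant of them after the non-coding RNA, with 9176 against 1983 CPM at E8D and 7438 against 1773 CPM at 1LM. The genes called higher at E8D and lower at 1LM were 15, and none was called the other way.

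**Figure D4:**
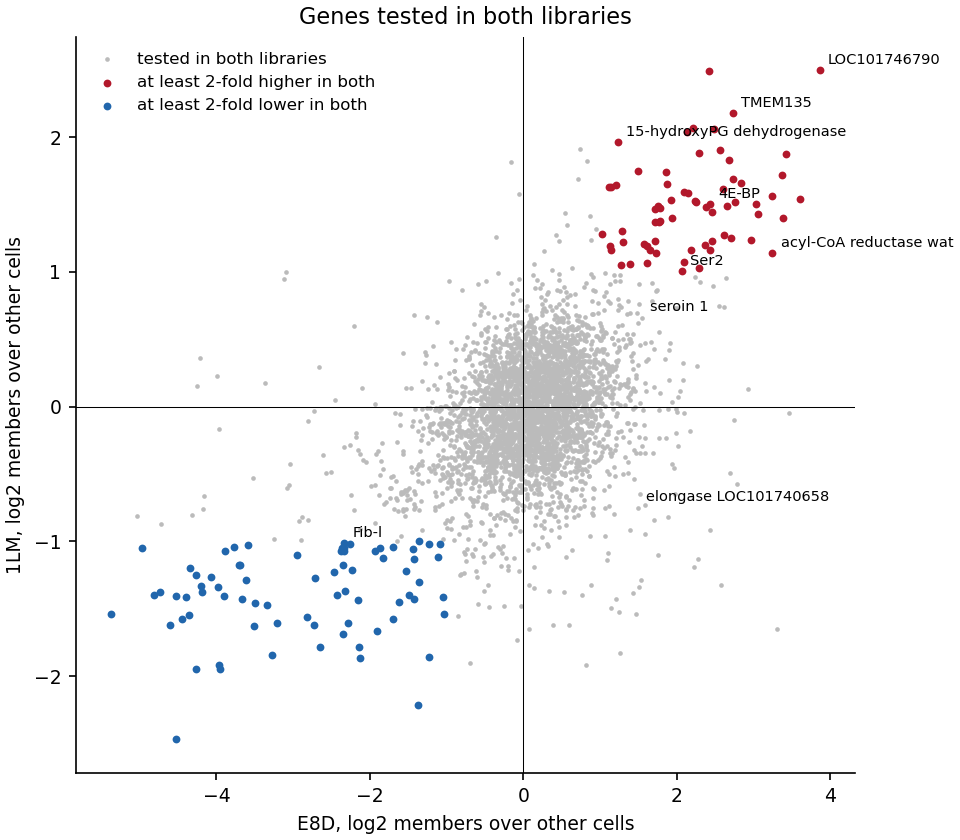
Log2 ratio of members over other cells at E8D (x axis) and at 1LM (y axis) for the 3768 genes tested in both libraries. Red points are the 67 genes at least 2-fold higher in both and blue points the 74 at least 2-fold lower in both, and LOC101746790 lies farthest up with 3.86 and 2.50.

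The study's longer table of SPS markers, without the 5 markers, ribosomal protein and mitochondrial genes, matched 249 of 254 names. It was drawn from these same libraries, so its counts are not independent evidence of direction. At E8D, 56 of 248 tested were called higher (22.6%, against 9.49% of all genes) and 5 lower, with a median of 0.22 beside 0.13 for all genes. At 1LM, 38 of 249 were higher (15.3%, against 2.02%) and 1 lower, with a median of 0.32 beside -0.17. Most genes of the table were thus not called in either direction. The highest at E8D were LOC101746790, LOC101735652, AP180, the arylsulfatase B-like gene LOC110384858 (3.06) and Balbiani ring protein 6 (LOC101746931, 2.74, and 0.91 at 1LM at like depth), the namesake of a secreted salivary protein of midges. The highest at 1LM were LOC101746790, LOC101745377, the FabG-like reductase, LOC101735322 and the non-coding RNA LOC101737054.

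Markers of the other cell types were counted in the members. Beside the calls below, 9.49% of all tested genes were called higher and 7.7% lower at E8D, and 2.02% and 10.5% at 1LM. Of the anterior gland markers, those of the types with most UMIs were lower in members. The summed LSF markers had 75.2 CPM in E8D members and 616 CPM in other cells (-3.04), and at 1LM the summed ECR (132 against 454 CPM, -1.78) and CM markers (chitin metabolism cells, 188 against 592 CPM, -1.65) were lower, with 5 of 5 genes called lower in each list. The rarer CM markers at E8D (32.5 against 20.5 CPM, 0.66, 0.08 to 1.22) and TR markers, of traction forces cells, at 1LM (15.3 against 9.17 CPM, 0.74, 0.17 to 1.29) had ratios above 0, on 35 and 39 UMIs in members. Of the posterior gland, the summed markers of FPSs, the fibroin-synthesizing cells, had a log2 ratio of -0.36 at E8D with 3 of 5 called lower, and of 0.18 (0.11 to 0.25) at 1LM with 1 called higher and 1 lower. LOC101745332 held 118213 of the 119211 CPM of this sum in E8D members and was the gene called higher at 1LM (1.26). The summed markers of DRRs, the death and remodeling regulation cells, had 3032 against 7805 CPM at 1LM (-1.36) with 5 of 5 called lower. Of the E8D members, 48.6% held at least 2 markers of ERSSs, the embryonic stress-signaling cells of the middle gland, and 22.3% of the other cells did. After thinning, these shares were 27.9% and 25.4%. The summed ERSS markers had 1660 against 1405 CPM (0.24), with 0 of 5 called. At 1LM, where they were rare, they had 37.4 against 19.9 CPM (0.91, 0.54 to 1.26). At 1LM, 86 members (9.06%) and 83 other cells (1.34%) held at least 2 markers of SPCs, the sericin-catabolism cells of the middle gland, or 3.69% and 0.797% after thinning. The summed SPC markers had 303 against 94.0 CPM (1.69, 1.55 to 1.82), with 4 of 5 called higher. At E8D, the SPC markers had 65.9 against 17.1 CPM (1.95, 1.49 to 2.40), on 71 UMIs in members, and 5 members held at least 2 of them.

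The members of 1LM were of unlike kinds with respect to these SPC markers. The division was made after the values were seen. The 86 members with at least 2 SPC markers (median 3961 UMIs) had Ser2 at 40169 CPM (39507 to 40840), and the other 863 members (median 2071 UMIs) at 11208 CPM (11068 to 11348). LOC101746790 stood at 6346 and 397 CPM, Balbiani ring protein 6 at 9351 and 606 CPM, and the reductase wat at 436 and 69.8 CPM. Of the UMIs of LOC101746790 and Balbiani ring protein 6 in members, 2213 of 3083 and 3261 of 4589 lay in these 86 cells. Of those of Ser2 and wat, 14008 of 38581 and 152 of 305 did. The reverse held for the FabG-like reductase (720 and 1762 CPM), LOC101735322 (227 and 611 CPM), and sage (292 and 654 CPM). UGT33Q1 is itself an SPC marker, and 161 of its 192 UMIs in members lay in the 86 cells. In other cells with and without 2 SPC markers, Ser2 stood at 18344 and 7323 CPM, so that it was higher in members than in other cells of both kinds. Without any cell of at least 2 SPC markers, the log2 ratio of Ser2 was 0.61, of LOC101746790 1.00 and of wat 0.51, while that of the FabG-like reductase was 2.16. The depth of the cells moved with this division, and its part was not tested.

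**Figure D5:**
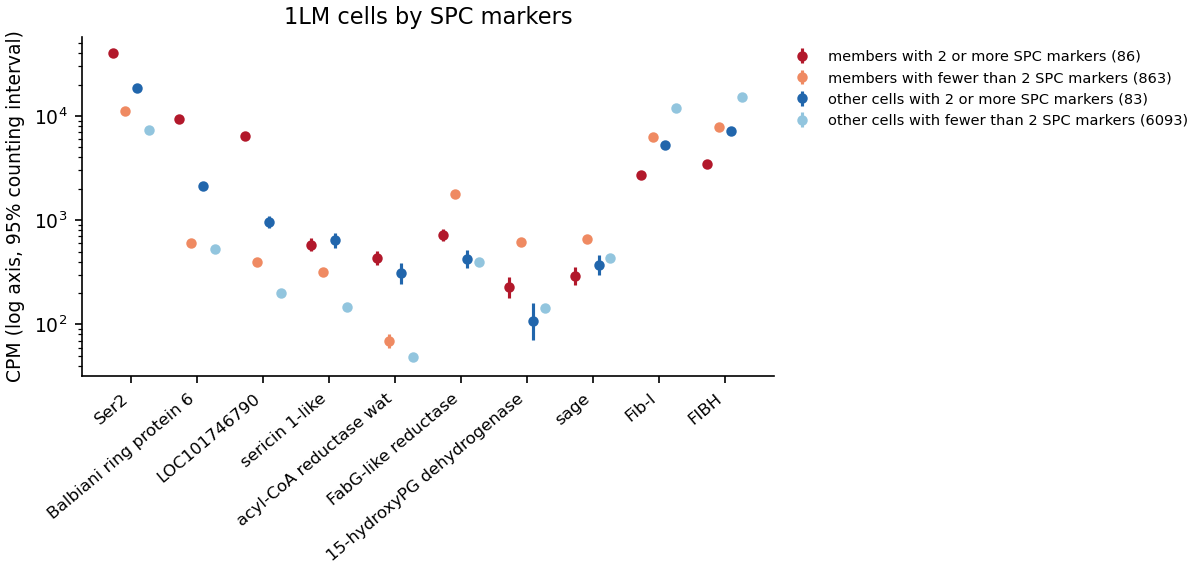
CPM with exact Poisson 95% intervals (log axis) of 10 genes in 1LM cells, divided into members and other cells with and without at least 2 SPC markers (numbers of cells in the legend). Ser2 stands at 40169 CPM in members with SPC markers and at 11208 CPM in the rest of the members, and the FabG-like reductase at 720 and 1762 CPM.

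The members of E8D differed by the marker pair that selected them. The 208 members with both the P450 and the dynein chain (median 2291.5 UMIs) had LOC101746790 at 2651 CPM, Balbiani ring protein 6 at 2143 CPM and the reductase wat at 503 CPM. The other 78 (median 1441 UMIs) had them at 480, 391 and 107 CPM. Seroin 1 stood at 8875 and 4680 CPM, and the sericin 1-like gene LOC101740082 at 76.2 (58.8 to 97.2) and 373 CPM (298 to 462). For LOC101740082 these rest on 65 and 84 UMIs, and 1 member held 37 of the 149. The intervals do not cover this, and its levels were not recomputed without that cell. Fib-l stood at 693 CPM (638 to 751) and 533 CPM (442 to 638), with intervals that just miss each other. The richest member held 157 of the 711 Fib-l UMIs, more than the 120 UMIs of all 78, so it lay among the 208. This order may thus rest on 1 cell, and it was not recomputed without that cell. At 1LM, the 530 members with the desaturase and the oxidoreductase and the other 419 had Ser2 at 15433 and 14783 CPM and the FabG-like reductase at 1904 and 1166 CPM.

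Spread among the members was measured by the Fano factor, the variance over the mean of UMIs after thinning, for genes with a mean of at least 0.1. At E8D, the highest were LOC101745332 (86.8), the non-coding RNAs LOC101745133 (36.7) and LOC101737054 (32.4), LOC101746790 (22.1) and the non-coding RNA LOC101745164 (15.5). LOC101737054 ranged from a 10th percentile of 0 UMIs over a median of 4 to a 90th percentile of 48.7 in these 204 members. At 1LM, LOC101737054 led with 48.1 and a range from 7 over 31 to 120.8 UMIs. It was followed by the cuticular genes CPH18 (36.9) and CPH19 (35.1), with LOC101735305 (35.5) between them, and by LOC101740726 (27.1). These 4 had no UMI in over 90% of the members and up to 84 in 1, so a few cells set their spread.

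The members of both stages are set side by side with stage and library not told apart. The P450 of the rule stood at 937 CPM in E8D members and 273 CPM in 1LM members, and the dynein chain at 643 and 61.4 CPM. The desaturase went the other way, with 7.42 and 585 CPM, as did the oxidoreductase with 111 and 460 CPM. These 4 markers differed in the same direction in the cells outside the members, for example by -3.37 on the log2 scale for the dynein chain against -3.39 in members. Ser2 stood at 94.7 CPM in E8D members and 15182 CPM in 1LM members, FIBH at 38.05 and 7201 CPM, and seroin 1 at 7999 and 7981 CPM. The CPM of seroin 1 was thus alike in members of both libraries, and differed by 0.88 on the log2 scale in the other cells. The non-coding RNAs LOC101745133 and LOC101745164 stood at 114649 and 57130 CPM in E8D members and at 402 and 34.2 CPM in 1LM members. LOC101745332 stood at 118213 and 325 CPM. These 3 genes took a large part of the UMIs of E8D members only, which lowers the CPM of all other genes there. No scaling between the libraries was made, so a like CPM does not show a like level. The retinal dehydrogenase LOC101740694 (680 and 83.8 CPM) and carbonyl reductase LOC101742796 (396 and 50.4 CPM) were lower in 1LM members, and the FabG-like reductase stood at 2713 and 1619 CPM.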

How the data were processed

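Single cells of pooled silk glands were sequenced with Chromium 3′ chemistry. UMI counts per gene and barcode were deposited by the authors as 1 matrix per library, made with Cell Ranger 3.1.0 and STAR, per the labels and the study's methods, on the ASM15162v1 assembly. The counts were used as deposited. A down-sampling of reads named in the study's methods was not repeated, and whether it is already in these counts was not established.

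Barcodes with over 30% mitochondrial UMIs, or with a ratio of UMIs to genes over 2 SD from the library mean, were removed, which kept 16344 of 18864. These are the limits the study states, but they do not leave the number of cells it states, so the cells are not exactly its own. The rule for the SPS-marker cells, the gene lists and the comparisons were chosen with earlier results of these data known. UMIs were summed over members and over other kept barcodes of the same library and given as CPM. Genes with at least 100 UMIs entered, and were called by the exact binomial interval of the ratio at a 2-fold limit. Named genes were the markers, the genes of functional lists that were called or most abundant, the 10 highest and 5 lowest ratios per library, the 10 highest shared genes and the most variable ones. Genes outside these were named after their values were seen. Cells with at least 1000 UMIs were thinned to 1000, or cells were restricted to the members' middle range of depth, as alternatives. Further alternatives were other numbers of markers, mitochondrial limits, count minimums and scalings, averaging over cells, and removal of simulated doublets. Removal of the cell richest in each gene, and of cells with markers of another type, were added after seeing the data. Non-coding RNAs were recognized from RefSeq gene types (ASM3026992v2), with no coordinates used. The 1L1D library was not compared. Calculations used Python 3.11.15, numpy 2.4.6, scipy 1.17.1, pandas 2.3.3 and scikit-learn 1.9.0, and scalings R 4.3.3 with edgeR 4.0.16 and DESeq2 1.42.0. The ratio calculation was tested on simulated data.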

Additional observations from a re-analysis of the deposited data

Results flagged for a closer look

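The elongase LOC101740658 had a log2 ratio of 1.49 at E8D and of -0.75 at 1LM. The uncharacterized gene LOC101745172 had 3.30 at E8D and -1.65 at 1LM, where 8 of its 10 UMIs in members lay in 1 cell. Both stood out because their ratios point in opposite directions in the libraries. The difference between the libraries was not tested.

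Barcodes outside the comparison also met the marker rule. In 1L1D, 33.5% of the kept barcodes did, which is 1453 of 4339. Of the barcodes removed by the quality filters, 20.4% met it at E8D (96 of 471) and 58.8% at 1LM (228 of 388). At 1LM, 381 removed barcodes had an outlying ratio of UMIs to genes.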

How the results depend on the processing

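No paired analysis was possible because each stage had 1 library. With 1 library per stage and members chosen by detection, depth limits all counts. Requiring 3 of the 5 markers left 44 members at E8D and 270 at 1LM, where 1149 genes were then lower. Selecting after thinning to 1000 UMIs left 73 and 359 members, with 90 genes higher and 79 lower at E8D, 76 higher at 1LM, 20 higher in both, and 32 of the study's SPS markers higher at E8D. Within the depth range of the members, 129 genes were higher and 163 lower at E8D, 42 were higher in both, and 37 SPS markers were higher at E8D. At a minimum of 10 UMIs, 758 genes were higher and 484 lower at E8D, 246 higher at 1LM and 108 higher in both, and 185 were lower at E8D with 10 UMIs in both groups. At 1LM, 218 genes were higher with TMM and 219 with DESeq2 factors. Averaging over cells gave 89 higher at 1LM, 42 in both and 23 SPS markers at 1LM. With all deposited barcodes, 1485 genes were lower at 1LM. The causes were not tested.

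Of 107 named ratios that were called, 103 kept their sign under each of the 14 alternatives that gave them a value. Their sizes held less well. Of all named ratios, called or not, 52 of 183 stayed within their counting interval after thinning, 82 of 186 in the depth range and 72 of 184 as a mean over cells. With 3 markers 77 of 186 did, and with all deposited barcodes 65 of 186. With doublets removed 162 of 186 did, and at the lower mitochondrial limit 180 of 186. The minimums of 10 UMIs leave a single ratio as it is, and thinning gave a value for 183 of 186 named ratios. LOC101740082 at E8D turned to -1.49 after thinning, -0.60 in the depth range and -0.12 as a mean over cells. LOC101742915 at E8D was 0.0297 as a mean over cells. LOC101739681 at 1LM was -2.75 with 3 markers, -0.74 after thinning, -3.10 in the depth range and -4.50 without its top cell. LOC101745172 at 1LM was 1.39 after thinning and 0.13 as a mean over cells. Without the top cell of each gene, 323 genes were higher at E8D and 128 at 1LM, of which 127 were among the 136 called with all cells.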
